A study of Mus musculus with 6 samples.

Results

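The mitochondrial ribosomal protein genes were taken as every row of the main differential expression table whose gene symbol begins with Mrpl or Mrps followed by a number. This gave 123 of the table's 15905 transcripts and 73 of its 8513 genes. By symbol, 46 genes (80 transcripts) encode proteins of the large subunit and 27 genes (43 transcripts) proteins of the small subunit. The identifiers of all 73 carry the same symbols in GENCODE mouse release 21, and the genes lie on 17 chromosomes. A reference list of such genes held 78 names. The other 5, Mrpl32, Mrpl35, Mrpl53, Mrps22 and Mrps25, have no row among those used and were not analysed here.

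The RNA came from B16.F10, a pigmented mouse melanoma cell line whose genotype the labels give as wild type. Control cells received no treatment, and the labels name no vehicle. Treated cells received simvastatin, an inhibitor of HMG-CoA reductase in the mevalonate pathway, at 3.5 µM for 24 h, an inhibitory concentration that the submitters had set earlier. There were 3 samples in each group, called biological replicates in the series text, all 6 with the same batch label and all from stranded total RNA libraries.

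The deposited table gives 1 value per group and transcript, together with the authors' fold, p-value and adjusted p-value. No value per sample was used, so no SD is given, the depth of each sample is unknown, and the p-values are the only measure of error. The unit of the values, and so whether they are per transcript length, is not known. Levels are therefore compared between groups for the same gene or the same set of genes. Rankings of genes by total, and the weight of each gene in a sum, depend on this unknown unit. In RNA from whole cultures, fewer cells of a kind and less RNA per cell cannot be told apart. The identity of the line was checked on its markers: Tyrp1, Dct, Pmel and Mlana had summed values of 741 to 3437, and Mitf, Tyr and Sox10 of 44.15 to 195. Of these 7 markers 6 were higher with simvastatin, with a median log2 ratio of 0.17 and 0 past the adjusted threshold; their part in the results below was not tested. The fibroblast and keratinocyte markers had no row, and of the immune markers Cd68 had 0.37 in control and 0.93 with simvastatin.

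Mitochondria carry their own ribosome, which translates the few mRNAs encoded in mitochondrial DNA into membrane subunits of the respiratory chain and ATP synthase. Its rRNAs come from mitochondrial DNA, but its proteins are encoded in the nucleus, made in the cytosol and imported. Some of these proteins descend from proteins of the bacterial ribosome, and others were added in the mitochondrial lineage. Symbols do not always match positions: Mrps30 and Mrps18a sit in the large subunit of the mammalian mitoribosome, and Mrps36 is known as a component of the alpha-ketoglutarate dehydrogenase complex of the citric acid cycle.

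Promoter windows from RefSeq (GRCm38.p6), spanning 250 bases before to 50 bases after the start site, were found for 64 of the 73 genes. The stretches upstream of 4 of them are shown, in lower case with motif matches in capitals. Mrps36 is the gene with a transcript that rose, Mrps18a had the smallest adjusted p-value among members with a lower value, Mrpl16 is 1 of the 2 members with a CREB palindrome, and Mrps27 shows the short gap to a neighbour read in the other direction. Each stretch is read 5′ to 3′ on the gene's strand and leaves out bases covered by annotated exons. They are chr13:100744660-100744909 (minus strand, 250 bases), chr17:46110754-46110985 (plus strand, 232 bases), chr19:11770165-11770390 (plus strand, 226 bases) and chr13:99344706-99344785 (plus strand, 80 bases), in this order.
Mrps36: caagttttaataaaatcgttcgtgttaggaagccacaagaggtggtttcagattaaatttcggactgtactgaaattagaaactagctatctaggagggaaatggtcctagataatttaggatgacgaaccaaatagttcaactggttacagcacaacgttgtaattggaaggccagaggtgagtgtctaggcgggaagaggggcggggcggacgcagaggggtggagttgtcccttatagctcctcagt
Mrps18a: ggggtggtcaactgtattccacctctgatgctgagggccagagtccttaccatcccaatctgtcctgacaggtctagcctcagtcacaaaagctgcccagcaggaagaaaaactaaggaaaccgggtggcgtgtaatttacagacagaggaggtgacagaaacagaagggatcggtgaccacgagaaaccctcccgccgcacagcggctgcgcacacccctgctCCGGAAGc
Mrpl16: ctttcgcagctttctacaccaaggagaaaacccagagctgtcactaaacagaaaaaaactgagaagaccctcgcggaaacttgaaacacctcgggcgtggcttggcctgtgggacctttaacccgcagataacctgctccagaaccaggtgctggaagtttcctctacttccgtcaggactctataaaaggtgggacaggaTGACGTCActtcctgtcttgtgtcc
Mrps27: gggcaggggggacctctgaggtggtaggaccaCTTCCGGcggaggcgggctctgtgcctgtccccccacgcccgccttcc

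The capitals in Mrps18a and Mrps27 mark the ETS core, CCGGAAG or its reverse complement CTTCCGG, the kind of element bound by GABP. In Mrpl16 they mark the CREB palindrome, TGACGTCA. The Mrps36 stretch held none of the 5 motifs searched. The Mrps27 stretch is the whole gap between its start and that of Ptcd2, which is read in the other direction. Over the full windows and on both strands, the ETS core occurred in 24 of 64 member genes (37.5%), in 23.6% of the 6092 genes of the table with a window and in 9.93% of all 27025 genes with one. The YY1 core, AAGATGGC, occurred in 10 of 64 (15.6%), against 6.27% and 3.19%. The NRF-1 core, GCATGCGC, occurred in 7 (10.9%, against 7.04% and 3.05%), the E-box, CACGTG, in 5 (7.81%, against 12.9% and 8.09%), and the CREB palindrome in 2 (3.12%, against 3.99% and 2.03%). A match describes these letters and is not evidence of binding.

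Members with and without a motif can be set side by side. The median log2 ratio of simvastatin to control was -0.29 in the 24 genes with an ETS core and -0.32 in the 40 without. It was -0.41 in the 10 genes with a YY1 core and -0.28 in the 54 without. For the NRF-1 core it was -0.20 in the 7 genes with it and -0.33 in the 57 without. For the E-box the medians were -0.24 in 5 genes and -0.31 in 59. For the CREB palindrome they were -0.41 in 2 genes and -0.30 in 62. These medians were not tested, because no value per sample was used.

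The comparison of treated with untreated cells asked how the melanoma cells' RNA responds to the statin. For the mitoribosome, transcript values were summed per gene. The 73 members together had a summed value of 1279 with simvastatin and 1612 in control, which is 1.26-fold lower with the drug. Single gene totals were lower in 67 of 73 members (91.8%), with a median log2 ratio of -0.31, or 1.24-fold lower. Over all 8505 genes with a ratio, 48.3% had a lower total, and the median was 0.02. The members' middle range was also narrow: their interquartile range of log2 ratios was 0.25, against 0.68 over all genes. It was 0.21 for the 152 cytosolic ribosomal protein symbols described below, so a narrow range is not particular to the members. Members with a mean total of at least 20 had a range of 0.21 against 0.55 for all genes of that level. Those between 10 and 20 had 0.22 against 0.57, and the 20 members under 10 had 0.41 against 0.92.

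The size of this difference depends on scaling. Summed over the whole table, the values came to 344210 with the drug and 394749 without it, and most of that gap lay outside protein-coding genes, which summed to 261051 and 266300. Scaling both groups to the same total over all transcripts adds 0.20 to each log2 ratio. The members' median was then -0.11 with 56 of 73 lower (76.7%), while all genes had a median of 0.22 with 33.9% lower. The 11 members that turned from lower to higher under this scaling were Mrpl10, Mrpl22, Mrpl24, Mrpl38, Mrpl39, Mrpl43, Mrpl50, Mrps6, Mrps10, Mrps21 and Mrps31. Scaling to the same total over protein-coding genes, an alternative chosen after seeing the data, left 66 of 73 members lower with a median of -0.28.

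**Figure D1:**
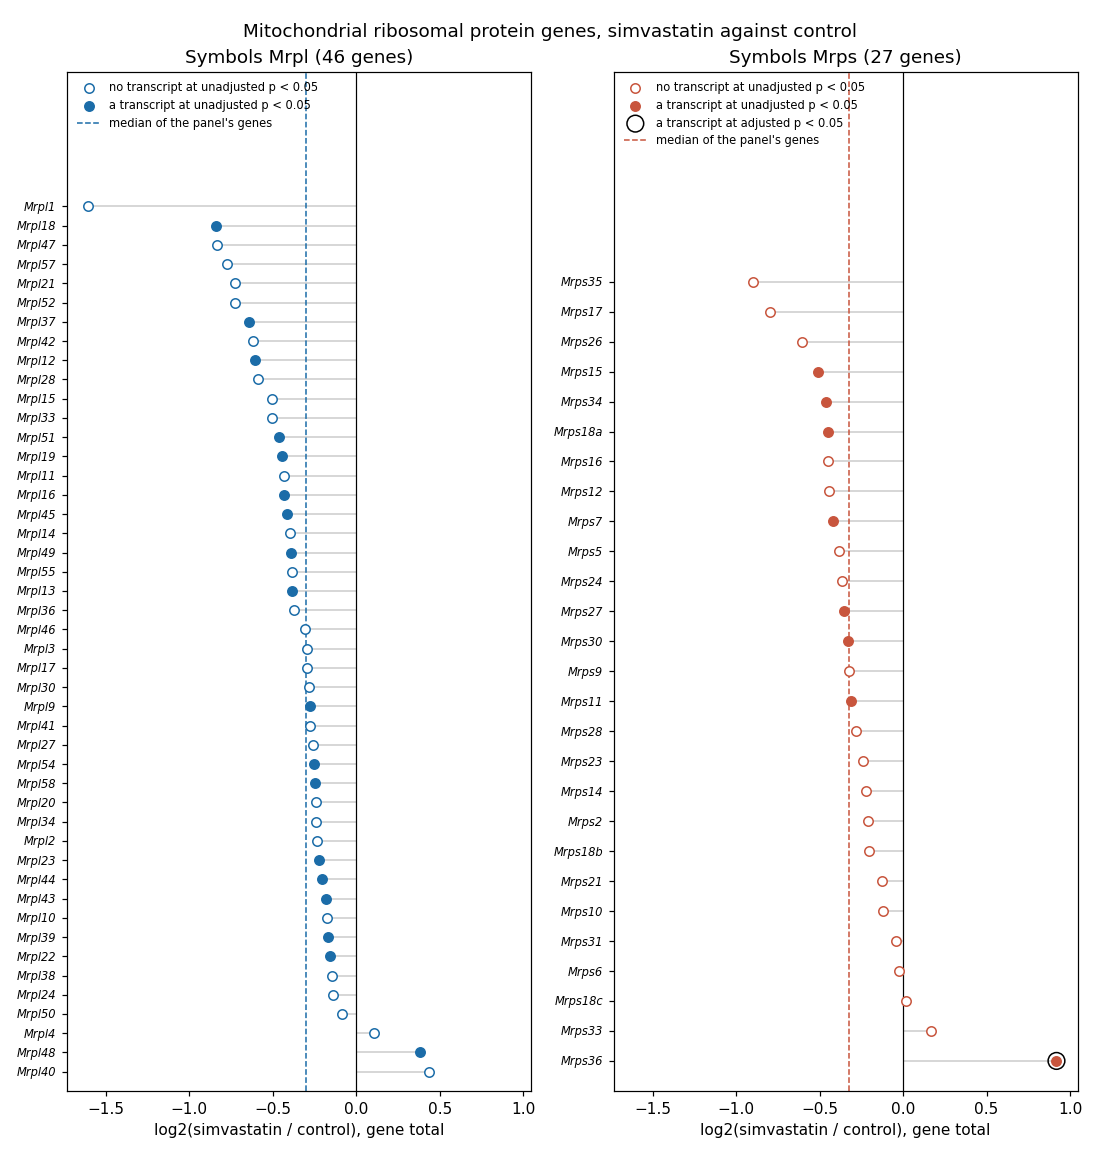
Change of the summed value of each of the 73 genes, as log2 of simvastatin over control, with symbols of the large subunit (Mrpl) on the left and of the small subunit (Mrps) on the right. Each point is 1 gene, filled where a transcript of it passed the unadjusted threshold of 0.05 in the authors' deposited table. The dashed lines are the medians, -0.30 and -0.32. 43 of 46 and 24 of 27 points lie left of 0, and Mrps36 lies farthest to the right; the filled point of Mrpl48 rests on a lower transcript although its total is higher.

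Single transcripts seldom passed the adjusted test. In the authors' deposited table, 1 of 123 member transcripts was higher at an adjusted p under 0.05, where 1.11% of all transcripts were. None was lower at that threshold, where 0.987% of all transcripts were. The sources used here do not name the authors' test. At an unadjusted p under 0.05 in the authors' deposited table, 25 member transcripts of 25 genes were lower (20.3%, against 10.2% of all transcripts) and 1 was higher (0.813%, against 9.42%). By symbol, 18 of 80 large subunit transcripts (22.5%) and 7 of 43 small subunit transcripts (16.3%) were among the lower ones. The authors' own yes or no call in the deposited table marked 5 member transcripts as lower (4.07%, against 4.37% of all) and 1 as higher (0.813%, against 5.13%). At an adjusted p up to 0.2, 18 were lower (14.6%, against 8.28% of all) and 1 was higher (0.813%, against 7.93%).

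The transcript that rose belongs to Mrps36, which lies at chr13:100735955-100744659 on the minus strand. Its principal coding transcript, ENSMUST00000109333, had a value of 8.18 with simvastatin and 3.14 in control, 2.60-fold higher (p = 0.001 and adjusted p = 0.043 in the authors' deposited table). The gene's other transcript, ENSMUST00000078573, also coding, had 2.99 and 2.77 (adjusted p of 0.955, from the authors' deposited table). The gene total was 11.17 with simvastatin and 5.91 in control, and its log2 ratio of 0.92 was the highest of the 73. The authors' deposited enrichment table lists Mrps36 among the 105 genes of the term mitochondrion for higher transcripts.

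Large subunit genes had a median log2 ratio of -0.30 over 46 genes, and their summed values were 904 with simvastatin and 1175 in control. Small subunit genes had a median of -0.32 over 27 genes, with sums of 375 and 437. The medians thus differed by 0.02. With subunits assigned by position in the ribosome, so that Mrps30 and Mrps18a count as large and Mrps36 as neither, the medians were -0.32 over both 48 large and 24 small subunit genes. The sums differed more between the subunits than the medians did: they were 1.30-fold lower for the large and 1.17-fold lower for the small subunit. Sums weight the genes of highest value, which are described next. No test of the difference between the subunits could be made without values per sample.

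**Figure D2:**
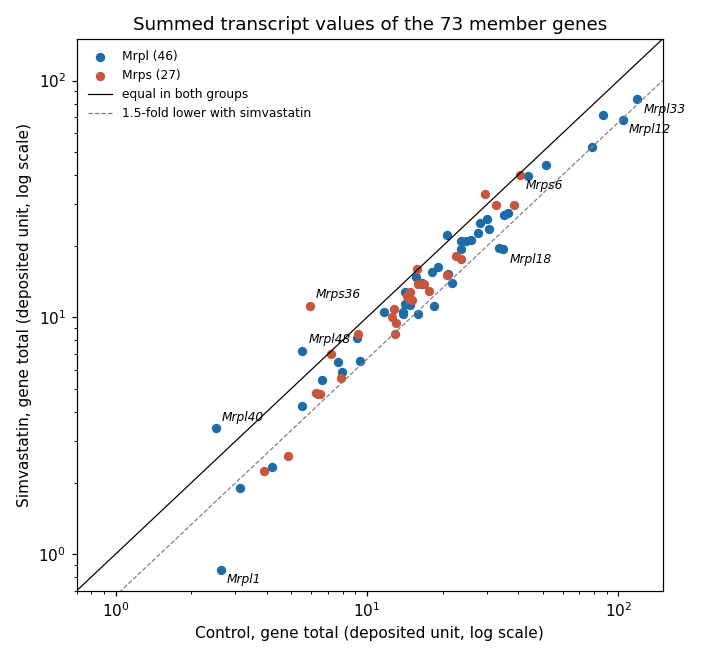
Summed value of each of the 73 genes in control (horizontal) and with simvastatin (vertical), both on a log scale in the deposited unit, with the solid line at equality and the dashed line at 1.5-fold lower. Most points of both subunits lie between the lines; Mrpl33 and Mrpl12, the highest of the large subunit, lie near the dashed line, and Mrps6, the highest of the small subunit, lies at equality.

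The 4 large subunit genes with the highest totals were Mrpl33, Mrpl30, Mrpl12 and Mrpl28, all with bacterial homologs. Mrpl33 had 83.6 with simvastatin and 119 in control, and Mrpl12 had 68.3 and 104. Mrpl30 had 71.3 and 86.7, and Mrpl28 had 52.3 and 78.6, so all 4 were lower, by 1.22-fold to 1.52-fold. Of the 4 small subunit genes with the highest totals, only Mrps24 had a ratio in that range, 1.29-fold lower. Mrps6 had 39.97 with simvastatin and 40.61 in control, and Mrps33 had 33.2 and 29.6. Mrps21 had 29.8 and 32.5, and Mrps24 had 29.9 and 38.5.

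Among large subunit proteins with bacterial homologs, Mrpl12 forms the flexible stalk that recruits translation factors and has also been reported to bind the mitochondrial RNA polymerase. It lies at chr11:120484613-120489065 on the plus strand. Its single transcript was 1.52-fold lower (p = 0.020 and adjusted p = 0.158 in the authors' deposited table). Mrpl18 belongs to the protein family that binds 5S rRNA in other ribosomes. Its coding transcript had 19.24 with simvastatin and 30.61 in control (adjusted p of 0.143, from the authors' deposited table), and its total, 19.4 against 34.8, had the lowest log2 ratio, -0.84, among members with a mean total of at least 5. Mrpl16, whose upstream sequence holds the CREB palindrome, had 10.33 and 13.96 (adjusted p of 0.083, from the authors' deposited table). Mrpl9, Mrpl13, Mrpl19, Mrpl22 and Mrpl23 also had a lower transcript at an unadjusted p under 0.05, and their totals were 1.12-fold to 1.36-fold lower.

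Other large subunit proteins were listed as added in the mitochondrial lineage. Of these, Mrpl44, which resembles ribonuclease III, had a small difference with a small p-value. It had 25.99 with simvastatin and 29.98 in control (p = 0.003 and adjusted p = 0.068 in the authors' deposited table). Mrpl37, at chr4:107055874-107066868 on the minus strand, had 13.95 and 21.76 (p = 0.004 and adjusted p = 0.078 in the authors' deposited table). Mrps18a, at chr17:46110986-46128910 on the plus strand, had 15.17 and 20.75, with an adjusted p printed as 0.050 in the authors' deposited table, and it was not counted as under the threshold. The values show a larger relative difference for Mrpl37 than for Mrpl44 at a similar p. Mrpl58 is a peptidyl-tRNA hydrolase built into the ribosome, which frees stalled chains, and its coding transcript had 3.19 and 5.23 (adjusted p of 0.086, from the authors' deposited table). Mrps30 had 10.03 and 12.60 (adjusted p of 0.163, from the authors' deposited table). Mrpl39, Mrpl43, Mrpl45, Mrpl48, Mrpl49, Mrpl51 and Mrpl54 had a lower transcript at an unadjusted p under 0.05 as well. Mrpl57 (19.6 with simvastatin, 33.5 in control) and Mrpl52 (11.2 and 18.5) had totals 1.71-fold and 1.65-fold lower, but none of their transcripts reached that p-value.

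Among small subunit proteins, Mrps11 and Mrps7, both with bacterial homologs, had the smallest adjusted p-values. Mrps11 had 11.90 with simvastatin and 14.76 in control (p = 0.002 and adjusted p = 0.059 in the authors' deposited table). Mrps7 had 17.68 and 23.68 (p = 0.004 and adjusted p = 0.077 in the authors' deposited table). Mrps27, a pentatricopeptide repeat protein and an addition of the mitochondrial lineage, had 11.83 and 15.11 (adjusted p of 0.094, from the authors' deposited table). Mrps15 and Mrps34 also had a lower transcript at an unadjusted p under 0.05. Counting both subunits, 8 of 123 transcripts (6.5%, against 3.76% of all transcripts) were lower at an adjusted p under 0.1 in the authors' deposited table, those of Mrps18a, Mrps11, Mrpl44, Mrps7, Mrpl37, Mrpl16, Mrpl58 and Mrps27. The Mrps36 transcript was the 1 that was higher (0.813%, against 4.02%).

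In the reference list, 44 members were classed as having bacterial homologs and 28 as added in the mitochondrial lineage. Related symbols can fall in different classes, as Mrps18c is in the first and Mrps18a and Mrps18b in the second. The classes therefore need not follow descent exactly. They were described apart. The first had a median log2 ratio of -0.34, with 42 lower, and the second -0.29, with 25 lower. Within the large subunit by position they were -0.38 over 28 genes and -0.29 over 20. Within the small subunit they were -0.32 over 16 and -0.30 over 8. The differences between these medians were not tested, because no value per sample was used.

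A total was higher with simvastatin in 6 members. Besides Mrps36 these were Mrpl40 (3.40 with simvastatin, 2.51 in control), Mrpl48 (7.22 and 5.54), Mrps33 (33.2 and 29.6), Mrpl4 (22.3 and 20.8) and Mrps18c (15.98 and 15.81). For Mrpl48, Mrps33 and Mrpl4 the total joined transcripts with opposite ratios. Mrpl48 had a coding transcript, ENSMUST00000146003, at 0.55 with simvastatin and 2.92 in control (p = 0.028, adjusted p = 0.189 in the authors' deposited table). Its transcript annotated for nonsense-mediated decay, ENSMUST00000107053, had 4.65 and 0.32 (p = 0.308 in the authors' deposited table), and without it the gene's total would be lower with simvastatin. In Mrpl4, a model assembled from reads had 8.46 with simvastatin and 0.26 in control (p = 0.072 in the authors' deposited table), while the coding transcript had 13.73 and 17.36 (p = 0.488). In Mrps33, the coding transcript ENSMUST00000031978 had 11.28 and 17.84 (p = 0.405 in the authors' deposited table) and an assembled model 20.08 and 7.53 (p = 0.365).

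Such splits were common among members with several rows. Of 30 such genes, 17 had rows in both directions, and 14 of these 17 still had a lower total. In 0 of the 17 did both directions reach an unadjusted p under 0.05 in the authors' deposited table. The 43 genes with 1 row, for which no split is possible, had a median log2 ratio of -0.35 with 41 lower. By annotation, 82 member transcripts were coding, 21 were models assembled from reads, 11 retained an intron, 6 were marked for nonsense-mediated decay and 3 were processed transcripts. Coding transcripts had a median log2 ratio of -0.31 with an interquartile range of 0.44, while the 20 assembled models with a ratio had -0.60 with a range of 2.12. An assembled model of Mrps12 was listed at 0 in control and 2.29 with simvastatin, so it has no ratio. Mrps12, the decoding-site protein of the small subunit, had 7.37 and 15.92 for its most abundant coding transcript (p = 0.127 in the authors' deposited table). For 7 members no coding Ensembl transcript had a row: Mrpl15, Mrpl47, Mrpl51, Mrps26, Mrps34, Mrps35 and Mrps5.

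**Figure D3:**
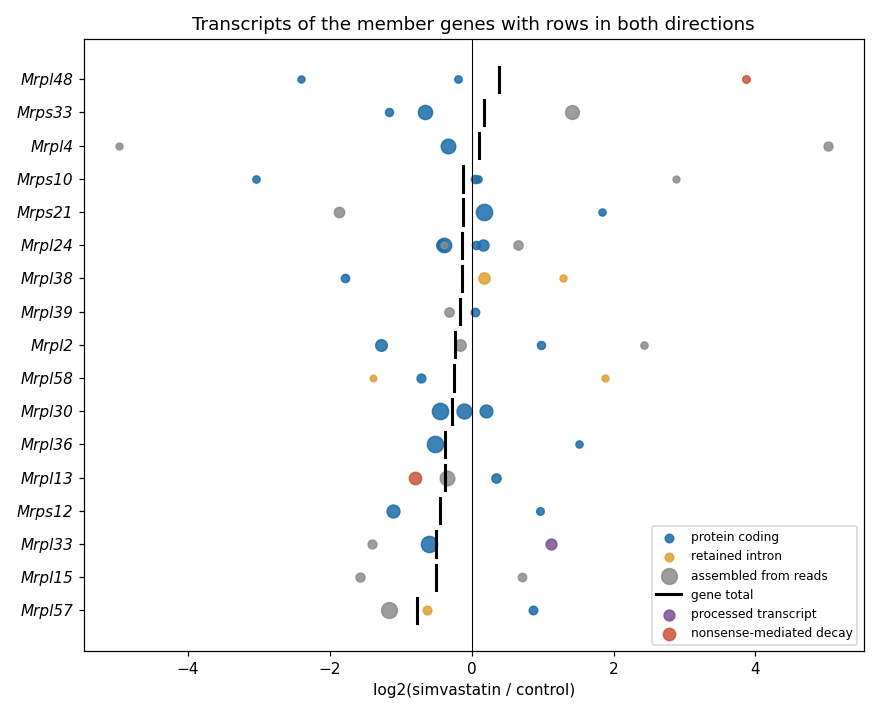
log2 ratio of simvastatin over control for each transcript of the 17 member genes with rows in both directions, coloured by transcript type, with larger points for higher mean values; black bars mark the gene total. The Mrps12 model listed at 0 in control is not drawn. Transcripts of 1 gene lie up to several log2 units apart on either side of 0, while the totals stay near it, 14 to its left and 3 to its right.

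Many members share a start region with another gene. A protein-coding gene read in the opposite direction began within 1000 bases of the start of 32 of 73 members (43.8%), against 18.4% of the 7566 coding genes of the table. Of these neighbours 19 had a ratio, and 14 of the 19 had a lower total (73.7%, against the 48.3% of all genes). With scaling to the same total over all transcripts, Mtbp (-0.06 before scaling), Tmem63b (-0.04), Ndufs6 (-0.18) and Ptcd2 (-0.15) turn from lower to higher. The share of lower totals over all genes is then 33.9%. Mrps11 and Mrpl46 form such a pair with each other, 412 bases apart. Each is counted as the other's neighbour, so both of these members are among the 14. Their log2 ratios were -0.31 and -0.31. Mrpl49 and Fau, the latter a fusion of a ubiquitin-like domain with a cytosolic ribosomal protein, had -0.39 and -0.38. Mrpl57 and Ska3, a kinetochore gene, had -0.78 and -0.87. Other pairs of the same sign lay farther apart. Mrpl14 had -0.39 and Tmem63b -0.04, Mrpl13 had -0.38 and Mtbp -0.06, and Mrpl47 had -0.84 and Ndufb5 -0.34. In 5 of the 19 the signs differed. Mrps7 had -0.42 and Gga3 3.42, from low Gga3 totals of 1.5 with simvastatin and 0.14 in control. Mrpl44 had -0.21 and Wdfy1 0.75, Mrpl2 had -0.24 and Klc4 0.58, Mrps18b had -0.20 and Ppp1r10 0.12, and Mrpl40 had 0.44 and Hira -0.25. In 15 of the 32 pairs the gene bodies overlap on opposite strands. The libraries were stranded, but no source used here says whether the counting used strand, so reads of overlapping partners may not have been told apart.

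The other genes of mitochondrial translation were described from lists of known components. Of 6 mitoribosomal proteins named otherwise, 5 had a row, and 4 of these were lower, with a median log2 ratio of -0.36. Chchd1 had 22.6 with simvastatin and 32.4 in control, Ptcd3 had 26.9 and 35.5, Dap3 had 11.7 and 15.1, and Aurkaip1 had 19.4 and 16.4. None passed the adjusted test, and 2 of the 5 genes had a lower transcript at an unadjusted p under 0.05, against 17.5% of all genes. Of 9 measured translation factors 7 were lower, with a median of -0.28. Scaled to the same total over all transcripts, the medians of the otherwise named proteins and of these factors were -0.16 and -0.08. Gfm1, the elongation factor that moves the ribosome along the mRNA, fell from 21.58 in control to 17.83, 1.21-fold (adjusted p of 0.042, from the authors' deposited table). Tufm, which brings aminoacyl-tRNA, had 41.3 and 54.8, and its exchange factor Tsfm had 11.2 and 17.5, neither past the threshold. This Tsfm total joined 2 transcripts with opposite ratios. Its transcript of smallest p had 4.79 with simvastatin and 16.78 in control (p = 0.005 and adjusted p = 0.087 in the authors' deposited table).

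Genes that assemble the mitoribosome or modify its rRNA had a median of -0.14 over 14 measured, with 10 lower and 0 past the adjusted threshold. Mitochondrial tRNA synthetases had -0.11 over 11, with 6 lower, and genes of mitochondrial transcription and RNA stability -0.11 over 13, with 10 lower. Protein import genes had -0.22 over 11, with 9 lower. Scaled to the same total over all transcripts, the first 3 of these medians turn to 0.06, 0.08 and 0.09, while that of import stays at -0.03. No gene of these lists passed at an adjusted p under 0.05. At an unadjusted p under 0.05 in the authors' deposited table, 16 of the 49 genes of these 4 lists (32.7%) had a lower transcript and 1 (2.04%) a higher one. Over all 8513 genes these shares were 17.5% and 15.8%.

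Among 9 measured regulators of nuclear genes for mitochondria 6 were lower, with a median of -0.20. Scaled to the same total over all transcripts, this median was -0.004. Gabpb1, a subunit of GABP, which binds the ETS core, had 1 transcript that fell 1.21-fold, from 4.16 in control to 3.44 with simvastatin (adjusted p of 0.049, from the authors' deposited table). Its partner Gabpa had 7.36 with simvastatin and 7.64 in control. Nrf1, the factor of the NRF-1 core, had 3.27 and 7.17. Its transcript of smallest p was lower (p = 0.008 and adjusted p = 0.104 in the authors' deposited table). Ppargc1a, a coactivator of mitochondrial biogenesis, had 22.2 and 13.6. The Ppargc1a transcript of smallest p was higher (p = 0.043 and adjusted p = 0.238 in the authors' deposited table). Yy1, the factor of the YY1 core, had 23.24 and 21.96 (p = 0.022 and adjusted p = 0.169 in the authors' deposited table). Creb1, which binds the CREB palindrome, had 7.0 and 11.98. Its transcript of smallest p was higher, with 2.95 and 0.98 (p = 0.237 in the authors' deposited table). None of these 4 passed the adjusted threshold.

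The RNAs that the mitoribosome contains or reads had ratios of the opposite sign. All 13 measured rRNA and mRNA genes of mitochondrial DNA had a higher value, with a median log2 ratio of 0.75, and 0 passed the adjusted threshold, while 9 were higher at an unadjusted p under 0.05 in the authors' deposited table. The rRNA of the large subunit, mt-Rnr2, had 400 with simvastatin and 297 in control (p = 0.294 in the authors' deposited table). No other rRNA of mitochondrial DNA was measured. The gene mt-Co1, for a subunit of cytochrome oxidase, had 2138 and 1034 (p = 0.003 in the authors' deposited table). Cytosolic ribosomal proteins, by contrast, had ratios like those of the mitochondrial ones. Over 152 symbols beginning with Rpl or Rps and a number, which include pseudogenes, the median was -0.33 with 140 lower. Over the 84 symbols without the pseudogene suffix it was -0.35 with 80 lower. This rule leaves out Rplp and Rpsa symbols and keeps symbols of related genes such as Rps19bp1 and Rps27rt. At the adjusted threshold 4 of these 84 genes were lower (4.76%, against 1.81% of all genes) and 0 higher (against 2.03%). At an unadjusted p under 0.05 in the authors' deposited table, 42 had a lower transcript and 3 a higher one. Over all genes these shares were 17.5% and 15.8%. The 84 genes had 297 transcripts, against 15905 over all 8513 genes, so each had more transcripts that could pass. A transcript of Rps16 fell from 227 in control to 186 (adjusted p of 0.033, from the authors' deposited table). A transcript of Rpl32 fell from 692 to 583 and 1 of Rps15 from 565 to 409 (adjusted p of 0.038 and 0.042, from the authors' deposited table). The difference between the cytosolic and the mitochondrial sets was not tested.

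**Figure D4:**
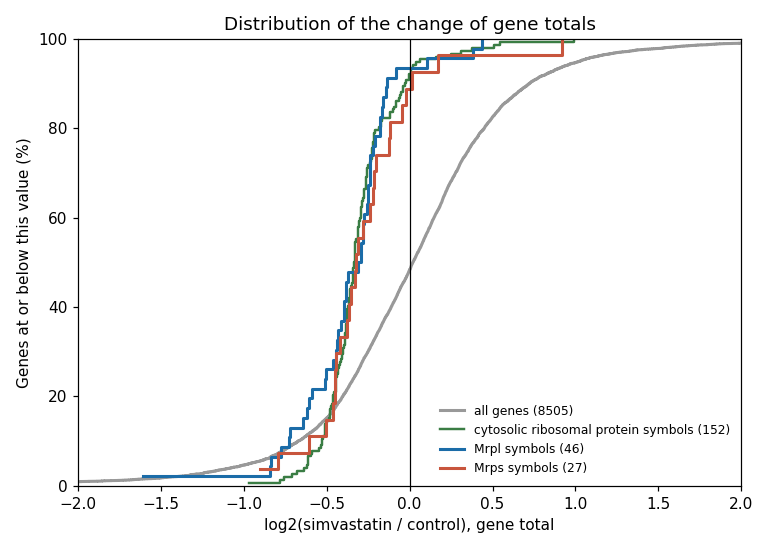
Cumulative distribution of the log2 ratio of simvastatin over control for gene totals: all 8505 genes with a ratio (grey), 152 symbols of cytosolic ribosomal proteins (green), 46 Mrpl genes (blue) and 27 Mrps genes (red); values beyond 2 in either direction are not drawn. The curves of the ribosomal sets rise together between about -0.6 and 0, with medians of -0.33, -0.30 and -0.32, to the left of the curve of all genes, whose median is 0.02.

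In the authors' deposited enrichment table, the term ribonucleoprotein complex for lower transcripts (46 genes, adjusted p = 3.27e-20) holds Mrpl12, Mrpl18, Mrpl37, Mrpl48 and Mrpl58. These are the 5 members that the authors called lower, 4.07% of member transcripts against 4.37% of all transcripts. All 5 are of the large subunit by symbol, where they make 6.25% of 80 transcripts, against 0 of 43 in the small subunit. This split depends on the rule. At an adjusted p under 0.1 in the authors' deposited table, 4 large (5%) and 4 small subunit transcripts (9.30%) were lower, against 3.76% of all. The term Ribosome (18 genes, adjusted p = 0.0633) in the authors' deposited enrichment table holds Mrpl12 and Mrpl18. The Mrpl48 entry rests on its transcript at 0.55 and 2.92, while the gene's total was higher. No member appears in the authors' tables of protein interactions, of genes linked to aggressiveness, or of the comparison with A375 cells.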

How the data were processed

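RNA of 3 control and 3 simvastatin-treated B16.F10 samples, grouped by their titles, had been sequenced. The submitters' processing notes name HISAT2 2.0.5, StringTie and the build GRCm38 (mm10). The counting, low-value filter and test stand in none of the sources used here. Per the file headers, the deposited table holds for each transcript a signal value per group, a signed fold, a p-value with its adjusted form and the authors' call. The unit of the signal is unknown. The enrichment table's fold and p-value are the authors', too. From these, transcript values were summed per gene and log2 ratios computed (Python 3.11.15, pandas 2.3.3, numpy 2.4.6), with no pseudocount or filter. The ratio scripts were tested on simulated data with the same shift and no noise in every transcript of a chosen gene. That checks the arithmetic only, and not noisy values or transcripts with opposite ratios.

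No test was refitted: a call is the authors' adjusted p under 0.05, as printed to 3 decimals. Transcript types and positions came from GENCODE mouse release 21, upstream sequences from RefSeq (GRCm38.p6). Members and lists were chosen with earlier results of these data known. Genes were named if a transcript had an unadjusted p under 0.05, if their total was among the 4 highest of a subunit or the 4 largest changes each way at a mean total of at least 5, if transcripts were called in opposite directions (none were), if they stand in another table, or, up to 3 per other list, if past the threshold. Other names are examples chosen after their values were seen.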

Additional observations from a re-analysis of the deposited data

How the results depend on the processing

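No paired analysis was possible because the table gives 1 value per group; for the same reason no sample could be left out. Transcripts called lower numbered 0 at an adjusted p under 0.05, 18 at an adjusted p up to 0.2, 25 at an unadjusted p under 0.05 and 5 by the authors' call, while 1 was called higher under each of these. Scaling to the same total over all transcripts moved the median log2 ratio to -0.11 for all members, -0.11 for the large and -0.12 for the small subunit; the other settings moved these 3 medians by no more than 0.1. The difference of large minus small subunit medians, 0.02, reversed to -0.0598 with the most abundant transcript per gene, -0.0030 with subunits by position, -0.0225 with every transcript as a row and -0.0609 with coding Ensembl transcripts only. The last setting, the scaling over protein-coding genes and leaving out Mrps36 were chosen after seeing the data. The cause of these shifts was not tested. Genes with a lower total numbered 56 to 68 of 73 where the settings kept all members, 67 of 72 without Mrps36, and 59 of 66, 61 of 66 and 63 of 70 with coding Ensembl transcripts, a mean total of at least 5 and Ensembl transcripts. Depth is unknown, so low values such as those of Mrpl1 (0.86 and 2.62) have no stated precision.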
